A study of Mus musculus with 4 samples.

Results

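Small nucleolar RNA host genes are transcribed as long RNAs whose introns carry small nucleolar RNAs (snoRNAs). The genes described here are *Snhg9*, *Snhg1*, *Snhg3*, *Snhg5*, *Snhg6*, *Snhg8*, *Snhg12* and *Gas5*, found by their symbols in the gene list of the count tables. They were chosen from results of these data, among them the measured levels of *Snhg9* in WT and *Bcl3*-/- cells, so that their differences between the genotypes are given as a description, with no p. Of the 8 symbols, 3 (*Snhg6*, *Snhg9* and *Snhg12*) are among the 27998 genes listed. The other 5 are not analysed here.

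The cells came from 2 mixed bone marrow chimeras, made by giving WT (CD45.1) and *Bcl3*-/- (CD45.2) marrow together to sub-lethally irradiated *Rag1*-/- mice, which lack B and T lymphocytes of their own but keep other host cells. On day 8 of infection with LCMV Armstrong, CD8+ T cells of the spleen that bound the GP33 tetramer were sorted by their CD45 allele. WT1 and KO1 are the WT and *Bcl3*-/- libraries of chimera 1, and WT2 and KO2 those of chimera 2, so that n = 2 per genotype. The CD45 background goes with the genotype, and the effects of these cannot be told apart. After filters on cells (at least 500 genes, at most 10% mitochondrial UMIs), 4941 cells with 20192770 UMIs remained in WT1, 8092 with 19217181 in WT2, 5366 with 21813076 in KO1 and 6494 with 21525963 in KO2. WT2 was the shallowest, with a median of 2019 UMIs per cell against 3571 (WT1), 3620.5 (KO1) and 2948 (KO2). Each pair of libraries shared between 37 and 63 cell barcodes. *Bcl3*, the targeted gene, had 33.2 (WT1) and 108 (WT2) CPM, that is, UMIs per 1000000 UMIs of the cells, and 27.6 (KO1) and 86.6 (KO2) in the *Bcl3*-/- libraries. The part of the gene that is deleted is not given in the sources used here, and UMIs from the 3′ end outside of it check no genotype. Of the T cells, *Cd3e*, a subunit of the T cell receptor complex, was found in 82.4% (WT1), 59.5% (WT2), 94.1% (KO1) and 92.9% (KO2).

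After splicing, introns of a host gene are trimmed to snoRNAs, which guide the modification of ribosomal and other RNAs in the nucleolus. Those with C and D boxes guide the methylation of ribose, and those with H and ACA boxes guide the conversion of uridine to pseudouridine. Host genes can be protein-coding, but the spliced exons of the noncoding ones, such as those described here, carry no long reading frame. Many host genes start with a run of pyrimidines, as genes of the translation machinery do. The spliced RNAs of noncoding host genes are often removed by nonsense-mediated decay when translation runs. Only the polyadenylated exonic RNA is read by 3′ libraries, so that the levels below are of the spliced or unspliced host RNA and not of the snoRNAs, none of which has a row of its own in the tables.

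*Snhg9* (ENSMUSG00000090101) lies on the minus strand at chr17:24719531-24719965 (GRCm38, GENCODE vM21) and has 1 annotated transcript with 2 exons of 106 and 77 bases. The intron between them holds *Snora78*, at chr17:24719676-24719803. The sequence of the spliced *Snhg9* transcript is shown because its end is what the assay counts. The capitals mark its last polyadenylation signal, 14 bases before the annotated end. In *Snora78*, an H/ACA snoRNA, the capitals mark the ACA box, 3 bases before the end.

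Snhg9: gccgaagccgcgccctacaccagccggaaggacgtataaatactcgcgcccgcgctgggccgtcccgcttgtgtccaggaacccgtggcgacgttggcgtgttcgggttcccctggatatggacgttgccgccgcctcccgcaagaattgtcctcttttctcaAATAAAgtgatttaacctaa
Snora78: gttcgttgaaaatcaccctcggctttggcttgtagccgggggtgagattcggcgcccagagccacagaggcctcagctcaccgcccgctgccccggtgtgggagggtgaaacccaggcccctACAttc

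*Snhg6* (ENSMUSG00000098234) lies on the minus strand at chr1:9941959-9944118 and holds the C/D snoRNA *Snord87* (chr1:9942463-9942549) in an intron. *Snhg12* (ENSMUSG00000086290), on the plus strand at chr4:132308623-132311024, holds 5 annotated snoRNA entries, of *Snora16a*, *Snora44*, *Snora61* and *Snord99* (chr4:132310691-132310764). All 5 overlap an exon of at least 1 annotated *Snhg12* transcript, that is, a form that keeps an intron. Both C/D snoRNAs are shown to set them beside *Snora78*, with the C box (TGATGA) and the D box (CTGA) in capitals.

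Snord87: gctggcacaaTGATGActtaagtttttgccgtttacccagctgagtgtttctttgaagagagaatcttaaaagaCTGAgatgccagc
Snord99: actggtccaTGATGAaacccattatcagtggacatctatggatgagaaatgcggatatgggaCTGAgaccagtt

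*Snhg9* had more UMIs in both *Bcl3*-/- libraries than in both WT libraries. It had 75 UMIs in WT1 (3.71 CPM, 95% Poisson interval 2.92 to 4.66) and 57 in WT2 (2.97 CPM, 2.25 to 3.84). KO1 had 262 UMIs (12.01 CPM, 10.6 to 13.6) and KO2 had 316 (14.7 CPM, 13.1 to 16.4). These and all intervals of levels below cover counting error only. The genotypes did not overlap, and the gap between them was larger than that between the chimeras. The level of KO1 was 3.23-fold that of WT1 (exact interval 2.49 to 4.24), and that of KO2 was 4.95-fold that of WT2 (3.72 to 6.68). The log2 fold change of edgeR's fit over all 4 libraries was 1.97 (SE 0.18). The cells themselves held few molecules each: 74 of 4941 WT1 cells had a UMI of *Snhg9*, and 57 of 8092 in WT2, 250 of 5366 in KO1 and 303 of 6494 in KO2. Thinning to 1000 UMIs left out the shallower cells, 25 (WT1), 223 (WT2), 15 (KO1) and 19 (KO2). Of the other cells, thinned, 0.325% had one in WT1 (exact 95% interval 0.186 to 0.528), 0.292% in WT2 (0.185 to 0.438), 1.10% in KO1 (0.840 to 1.42) and 1.68% in KO2 (1.38 to 2.03). Across the 11566 genes tested, 25.7% had both *Bcl3*-/- libraries above both WT libraries, and 0.285% were called higher in *Bcl3*-/- cells at an adjusted p of 0.05 (edgeR). Of the 3 host genes, *Snhg9* and *Snhg6* had such separated groups and *Snhg9* was called. With chimera as a replicate block the share called higher was 4.81%, and both *Snhg9* and *Snhg6* were called. Because these genes were picked from this contrast, these calls are no independent test, and nothing is read from the counts.

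**Figure D1:**
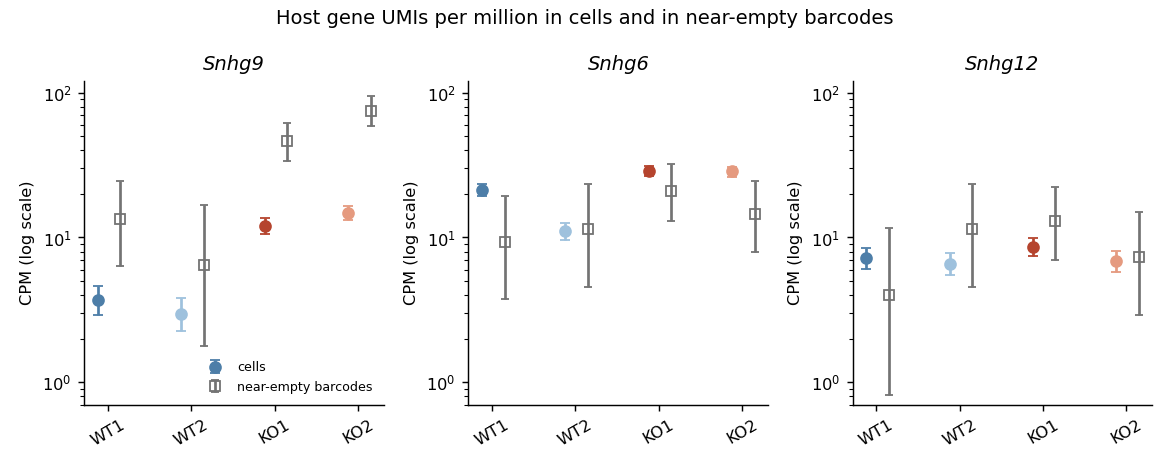
CPM of each host gene (log scale) in the 4 libraries, in cells (filled) and in near-empty barcodes of 1 to 50 UMIs (open squares), with 95% Poisson intervals. *Snhg9* lies at 3.71 and 2.97 CPM in the WT libraries against 12.01 and 14.7 in the *Bcl3*-/- libraries, and its near-empty values lie above those of the cells.

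Near-empty barcodes, those with 1 to 50 UMIs, hold mostly RNA that is free in the suspension, and *Snhg9* was found there too. Its level among their UMIs was 13.3 (WT1), 6.51 (WT2), 46.1 (KO1) and 74.9 CPM (KO2), from 10, 4, 46 and 72 UMIs. This is 3.59, 2.19, 3.84 and 5.10 times its level in the cells of the same library, where the WT ratios rest on few UMIs and the interval of the near-empty level in WT2 (1.77 to 16.7 CPM) spans the level of its cells. Over the 3635 genes with at least 20 near-empty UMIs in every library, to which *Snhg9* does not belong, the median of this ratio lay between 1.00 and 1.07. *Snhg20*, another host gene by name, also lay above it, at ratios between 2.47 and 3.25, whereas *Snhg6* lay between 0.439 and 1.03. Had every cell held 50 free UMIs of this make-up, they would have given 3.29 of the 75 *Snhg9* UMIs of WT1 and 24.3 of the 316 of KO2, or 4.39% to 7.70% over the 4 libraries. The number of 50 is assumed and not estimated from the cells. The part of free RNA in the difference between the genotypes was not tested.

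Markers of other cell types and of T cell states differed with the genotype. The 10 genes of the myeloid list, all counted, summed to 2962 CPM in WT1 and 2878 in WT2, against 3893 in KO1 and 4127 in KO2, and none was at 0. The most abundant of them, *S100a8* of neutrophils, had 747, 512, 1328 and 1455 CPM in the same order. The 7 genes of the terminal effector list summed to 1353 and 1698 CPM in the WT libraries and to 2392 and 2425 in the *Bcl3*-/- libraries, led by *Gzma*, and the 9 of the interferon list to 778 and 1006 against 589 and 728. The 15 genes of the cycling list summed to 1110 CPM in WT1 and 1175 in WT2 against 805 in KO1 and 1034 in KO2. The 6 genes of the CD4 list, led by *Icos*, summed to 134 and 143 CPM in the WT libraries and to 111 and 114 in the *Bcl3*-/- libraries, the 5 counted genes of the CD8 list to 5648 and 5393 against 5971 and 6016, and the 10 of the MPEC list to 505 and 473 against 453 and 470, where WT2 and KO2 lie close together. The sums of the B cell, plasma cell and erythroid lists overlapped between the genotypes. The part of these cells and cell states in the difference was not tested. Without the clusters of other cell types, the log2 fold change of *Snhg9* was 1.96. Among T cells with low cycling scores, *Snhg9* stood at 1.96 CPM in WT1 and 2.29 in WT2 and at 13.1 in KO1 and 17.7 in KO2.

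*Snhg9* starts 98 bases from *Rps2*, which encodes a protein of the small ribosomal subunit and is transcribed the opposite way (chr17:24718116-24721929, plus strand), as the map of the locus shows. A longer *Rps2* model (Rps2-207) begins further upstream and spans *Snhg9*, with which it shares 14 of the 183 exon bases on the opposite strand. These are the first bases of *Snhg9*, at its 5′ end. The annotated transcript support level of this model is 5, against 1 for the model that starts 98 bases away, where 1 is the best. None of the 153 words of 31 bases in the *Snhg9* transcript occurs in a transcript of another gene on either strand. Whether strand was used in counting is not stated in the sources used here. Whether reads from unspliced RNA of the longer *Rps2* model, which would cross *Snhg9*, were counted for it was not tested. *Rps2* had 1559 CPM in WT1 and 1914 in KO1 (log2 difference 0.30), and 1222 in WT2 and 1788 in KO2 (0.55). It was not called between the genotypes (adjusted p = 0.310 from edgeR) and was called with chimera as a replicate block (adjusted p = 0.00513). The difference in *Snhg9* was the larger in both chimeras. Per 1000 *Rps2* UMIs there were 2.38 UMIs of *Snhg9* in WT1 and 2.43 in WT2, against 6.27 in KO1 and 8.21 in KO2. *Ndufb10*, a subunit of respiratory complex I and another gene of this region, had 283, 279, 273 and 267 CPM in WT1, WT2, KO1 and KO2. *Msrb1*, a methionine sulfoxide reductase in the same region, was higher over all cells in the *Bcl3*-/- library of both chimeras. It had 126 CPM in WT1 and 149 in KO1 (1.18-fold, 1.12 to 1.25), and 134 in WT2 and 152 in KO2 (1.13-fold, 1.08 to 1.19). Among T cells with low cycling scores *Msrb1* had 96.1 CPM in WT1 and 101.3 in KO1, and 104.5 in WT2 and 105.3 in KO2, with overlapping intervals. *Tbl3* and *Gfer*, also there, had 19.99 to 25.7 and 38.2 to 42.3 CPM, and their libraries overlapped between the genotypes.

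**Figure D2:**
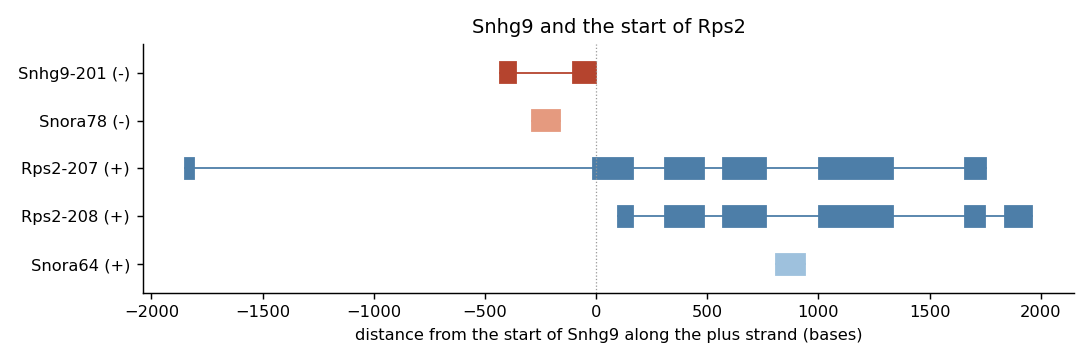
Annotated exons (boxes) and introns (lines) around *Snhg9*, as the distance in bases from its start along the plus strand. Rps2-208 starts 98 bases from *Snhg9* and points away from it, whereas Rps2-207 also has an exon beyond *Snhg9* and overlaps it by 14 exon bases.

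The promoter window that both genes share is shown because their starts are so close. It runs from 250 bases before the *Snhg9* start to 50 bases after it on the minus strand (chr17:24719916-24720215, RefSeq, GRCm38.p6), and capitals mark the E-box CACGTG and the TATA box TATAAA, each searched on both strands. The E-box begins 170 bases before the start and the TATA boxes begin 120 bases before it and 34 bases after it. Of the 32851 promoters in the table, 7.15% hold CACGTG and 13.6% hold TATAAA. A match to these letters is not a binding site. *Snhg6* was not among the promoters.

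Snhg9 promoter: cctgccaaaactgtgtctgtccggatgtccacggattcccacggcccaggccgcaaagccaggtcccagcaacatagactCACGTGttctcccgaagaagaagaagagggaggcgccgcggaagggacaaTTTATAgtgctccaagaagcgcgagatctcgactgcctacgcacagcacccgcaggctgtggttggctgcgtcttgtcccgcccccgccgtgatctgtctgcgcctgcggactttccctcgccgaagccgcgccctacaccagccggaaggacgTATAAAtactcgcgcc

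*Snhg6* differed between the WT libraries as well as between the genotypes. It had 21.2 CPM in WT1 (19.3 to 23.4), 11.1 in WT2 (9.65 to 12.7), 28.8 in KO1 (26.6 to 31.1) and 28.5 in KO2 (26.3 to 30.9). Both *Bcl3*-/- libraries were alike and above both WT libraries, but WT2 lay further below WT1 than WT1 below KO1. The log2 difference of KO over WT was 0.44 in chimera 1 (0.26 to 0.62) and 1.36 in chimera 2 (1.14 to 1.60). The edgeR fit over all 4 gave 0.80 (SE 0.27). It was 1.38 without WT1 and 0.38 without WT2, so that WT2 sets much of its size. WT2 is also the library with the fewest UMIs per cell. At 1000 UMIs per cell, 2.03% (WT1), 1.12% (WT2), 2.52% (KO1) and 3.00% (KO2) of the cells had a UMI of *Snhg6*. The last 127 of its 1146 exon bases overlap exons of *Mcmdc2*, a meiotic gene on the opposite strand, which had 4 or 5 UMIs in each library.

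*Snhg12* had 7.18 CPM in WT1 (6.06 to 8.45), 6.61 in WT2 (5.51 to 7.86), 8.62 in KO1 (7.43 to 9.94) and 6.88 in KO2 (5.81 to 8.08). KO2 lay between the WT libraries, and the intervals of all 4 overlapped. The log2 difference was 0.26 in chimera 1 (-0.06 to 0.59) and 0.06 in chimera 2 (-0.29 to 0.41), and 0.16 (SE 0.19) in the fit over all 4.

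Clusters were found in each library without the host genes among the variable genes, and were named from marker genes. T cells numbered 4625 (WT1), 7716 (WT2), 4951 (KO1) and 6054 (KO2), most of them in clusters that stayed unnamed. Some unnamed clusters were led by markers of the named classes. These were *Klrg1* and *Cx3cr1* in cluster 1 of WT1 (857 cells), and *Il7r* and *Tcf7* in cluster 2 of WT1 (602) and of KO1 (779). A class may thus hold unlike cells in different libraries, which limits the comparisons of genotypes by class. Terminal effector-like clusters were led by *Gzma*, *S1pr5*, *Cx3cr1*, *Klrg1* and *Zeb2*, a granzyme, receptors and a transcription factor of short-lived effector cells. MPEC-gene clusters were led by *Tcf7*, *Ccr7*, *Id3* and *Dapl1*, genes of memory precursor and naive cells, with *Cd4* also among the leading genes in KO1. Interferon clusters were led by *Ifit1*, *Ifit3* and *Isg15*, and cycling clusters by *Ccnb2*, *Lig1* or *Hist1h2ap*. Outside the T cells, each library had a B-like cluster led by *Cd79a* or *Ms4a1*. A cluster of KO1 and of KO2 that met the B cell rule was led by *Lyz2*, a gene of macrophages and neutrophils, and stayed unnamed. Levels by class are a description with no test.

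*Snhg9* was higher in the *Bcl3*-/- library of the same chimera in each of the 5 T cell classes. In the unnamed T clusters it had 3.97 CPM in WT1 and 3.59 in WT2 against 11.5 in KO1 and 14.7 in KO2. In terminal effector-like clusters (WT1 cluster 3, WT2 cluster 2, KO1 clusters 3 and 4, KO2 cluster 2) it had 2.02 and 3.86 CPM in the WT libraries and 9.78 and 16.01 in the *Bcl3*-/- libraries. In MPEC-gene clusters (cluster 8 of each library) it had 3.05 CPM in WT1 and 1.06 in WT2, from 3 and 1 UMIs, and 15.3 in KO1 and 14.2 in KO2, from 9 UMIs each. That is a ratio of 5.01 (1.25 to 28.8) in chimera 1 and 13.4 (1.86 to 587) in chimera 2. Interferon clusters had 2.12 CPM in WT1 and 9.80 in KO1. WT2 had no *Snhg9* UMI there among 925416, which allows up to 3.24 CPM, and KO2 had 13.6 CPM, at least 4.19-fold higher than that floor of 3 counts. In cycling clusters the levels were 3.99 CPM (WT1), 1.99 (WT2), 13.5 (KO1) and 13.7 (KO2). Between T cell classes of the same library the intervals of *Snhg9* overlapped in every pair, and the classes had no order that held in all 4 libraries. In B-like clusters the level was 8.77 (WT1), 9.94 (WT2), 16.9 (KO1) and 8.16 CPM (KO2), from 3, 3, 8 and 3 UMIs, with intervals that all overlapped.

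**Figure D3:**
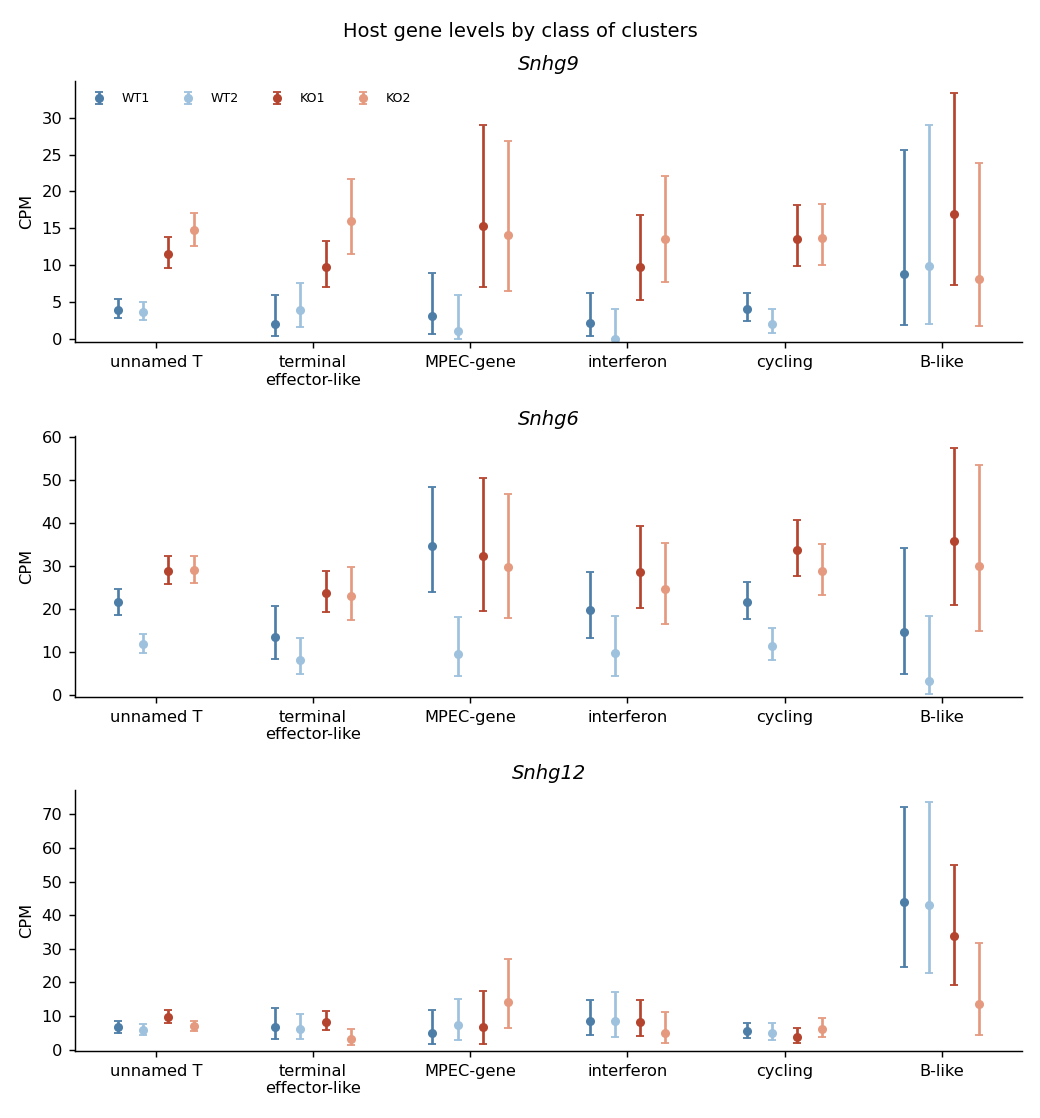
CPM of *Snhg9*, *Snhg6* and *Snhg12* by class of clusters and library, with 95% Poisson intervals of the summed UMIs. *Snhg9* is higher in the *Bcl3*-/- libraries in the 5 T cell classes, *Snhg6* is lowest in WT2 in each of them, and *Snhg12* is highest in the B-like cluster in WT1, WT2 and KO1 (33.8 to 43.8 CPM) but not in KO2 (13.6).

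*Snhg6* kept the low level of WT2 in every T cell class, at 8.20 to 11.9 CPM, whereas WT1 ranged from 13.5 to 34.6. Terminal effector-like clusters had the lowest level of the 5 classes in each of the 4 libraries: 13.5 CPM in WT1 (8.23 to 20.8), 8.20 in WT2 (4.78 to 13.1), 23.7 in KO1 (19.2 to 28.9) and 23.0 in KO2 (17.5 to 29.7). MPEC-gene clusters had 34.6 CPM in WT1 (24.0 to 48.4), 9.51 in WT2 (4.35 to 18.0), 32.3 in KO1 (19.4 to 50.4) and 29.9 in KO2 (18.0 to 46.7). Only in WT1 did the intervals of these 2 classes stay apart.

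*Snhg12* was highest in the B-like cluster in WT1, WT2 and KO1. In KO2 the MPEC-gene cluster (14.2 CPM) and the cluster led by *Lyz2* (14.4) lay slightly above it, with overlapping intervals. B-like clusters had 43.8 CPM in WT1 (24.5 to 72.3), 43.1 in WT2 (22.9 to 73.6), 33.8 in KO1 (19.3 to 54.9) and 13.6 in KO2 (4.42 to 31.7), from 15, 13, 16 and 5 UMIs. The T cells of the same libraries had 6.39, 6.00, 8.22 and 6.43 CPM. The B-like level was thus 6.86-fold that of the T cells in WT1 (3.72 to 11.8), 7.18-fold in WT2 (3.70 to 12.8) and 4.11-fold in KO1 (2.30 to 6.88). In KO2 it was 2.11-fold, with an interval of 0.675 to 5.07. At 1000 UMIs per cell, 8 of 105 B-like cells of WT1 (7.62%, 3.35 to 14.5) and 3 of 127 of KO2 (2.36%, 0.490 to 6.75) had a UMI, against 0.779% and 0.659% of the unnamed T cells. In WT2 4 of 112 had one (3.57%, 0.982 to 8.89) and in KO1 4 of 134 (2.99%, 0.819 to 7.47), against 0.620% and 1.03%. The intervals of B-like and unnamed T cells stayed apart in WT1 and WT2 and overlapped in KO1 and KO2. The B-like clusters are small, at 105 to 134 cells, and came through a gate for CD8+ T cells. Among T cell classes, *Snhg12* ranged from 3.12 to 14.2 CPM. Its intervals stayed apart only between cycling and unnamed clusters in KO1 and between terminal effector-like and MPEC-gene clusters in KO2.

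Whether the host genes vary over the cell cycle was tested in T cells of at least 1000 UMIs, with edgeR on UMIs summed per library and range. The G2/M range is the top 5% of a library by share of UMIs from a list of G2/M genes, the S range the top 5% by a list of S genes outside of it, and the low range the cells at or under the median of both. The lists hold none of *Snhg6*, *Snhg9* and *Snhg12*. The ranges held 231 (WT1), 376 (WT2), 248 (KO1) and 303 (KO2) cells for G2/M, 167, 258, 160 and 188 for S, and 1254, 2062, 1312 and 1596 for the low range. They are parts of a continuous score, with 81 to 190 cells of a library within 20% of the G2/M limit and 134 to 206 within 20% of the S limit. In KO1 the 195 cells near the S limit outnumber the 160 of the range. Neither range is specific to its phase. All 47 tested genes of the G2/M list were called higher in the S range by edgeR, with a median log2 change of 3.36. Of the 42 genes of the S list, 41 were called higher in the G2/M range. Below, S and G2/M stand for these ranges and not for a phase alone. Cells of both ranges were deeper than those of the low range, and those of S the deepest in each library. Their median UMIs in WT1, WT2, KO1 and KO2 were 6006, 3192.5, 5744 and 4499 in S, 4997, 2723.5, 5298.5 and 3982 in G2/M, and 3457.5, 1948, 3533 and 2905.5 in the low range.

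None of the 3 host genes was called between ranges by edgeR or DESeq2, and none had an unadjusted p under 0.05 in either. Of the 8871 genes tested, 22.2% were called lower and 22.3% higher in the G2/M range, and of the 8800 tested for S, 19.4% lower and 22.3% higher. From the low to the G2/M range, *Snhg9* went from 1.96 to 6.13 CPM in WT1, from 2.29 to 1.61 in WT2, from 13.1 to 11.6 in KO1 and from 17.7 to 14.2 in KO2. The libraries did not move the same way, and the log2 fold change was -0.11 (SE 0.25, adjusted p = 0.763 from edgeR). *Snhg6* went from 22.05 to 18.4 CPM in WT1, from 10.3 to 11.3 in WT2, from 26.6 to 31.4 in KO1 and from 26.6 to 24.8 in KO2, a log2 fold change of -0.04 (SE 0.16, adjusted p = 0.860 from edgeR). *Snhg12* went from 7.86 to 4.60 CPM in WT1, from 5.03 to 6.43 in WT2, from 6.64 to 2.73 in KO1 and from 5.89 to 6.39 in KO2, with a log2 fold change of -0.40 (SE 0.31, adjusted p = 0.304 from edgeR). For S against low, edgeR gave -0.06 for *Snhg9* (SE 0.30, adjusted p = 0.890), 0.24 for *Snhg6* (SE 0.17, adjusted p = 0.270) and -0.00049 for *Snhg12* (SE 0.34, adjusted p = 0.999). The G2/M range of *Snhg9* rests on 8 UMIs in WT1 and 2 in WT2. Changes somewhat larger than these errors can also go uncalled at this depth, as did that of *Snhg12* in G2/M. The lack of a call thus does not exclude such changes.

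**Figure D4:**
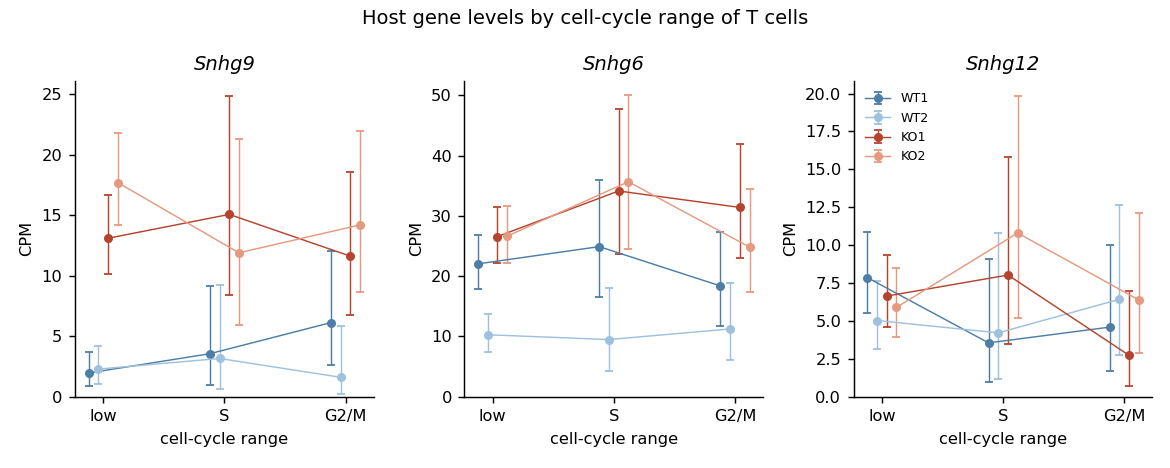
CPM of the 3 host genes in the low, S and G2/M ranges of T cells, by library, with 95% Poisson intervals. The lines of the *Bcl3*-/- libraries lie above those of WT for *Snhg9* in every range, and no gene moves the same way from low to G2/M in all 4 libraries.

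The difference between the ranges was also compared between the genotypes. Each library had its own limits. The S range began at a lower share of S-list UMIs for KO1 (0.265%) and KO2 (0.339%) than for WT1 (0.434%) and WT2 (0.516%). The limit for G2/M was 0.739% (KO1), against 1.03% (KO2), 1.05% (WT1) and 1.07% (WT2). The interactions thus compare ranges with unlike limits, and the part of this in them was not tested. An interaction was called for 0.0789% of the genes in G2/M and 0.0227% in S, and for none of the 3 host genes. With the top 10% of cells as the range, 202 genes were called in S in place of 2, again none of the 3. *Snhg9* had the largest G2/M estimate of them, -1.12 (log2, SE 0.65, adjusted p = 0.974 from edgeR). *Snhg6* had 0.21 (SE 0.33) and *Snhg12* -0.24 (SE 0.63).

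Other named host genes were set beside these. *Snhg20*, which holds no annotated snoRNA in spite of its name, had 26.99 (WT1), 28.5 (WT2), 29.98 (KO1) and 30.8 CPM (KO2). *Epb41l4aos*, an RNA antisense to *Epb41l4a* that holds a snoRNA, had 11.2, 9.52, 13.8 and 12.2 CPM in that order. A row named *Dancr* (ENSMUSG00000053656) had 3.62, 1.25, 0.734 and 0.511 CPM, from 73, 24, 16 and 11 UMIs. A second row of that symbol, the identifier that holds *Snora26* in vM21, had 4, 1, 1 and 5 UMIs, too few to compare. Between genotypes, edgeR gave log2 fold changes of 0.12 (SE 0.09) for *Snhg20*, 0.31 (SE 0.17) for *Epb41l4aos* and -1.98 (SE 0.58) for *Dancr*. None was called, and *Dancr* was called with chimera as a replicate block (-1.90, adjusted p = 0.00728 from edgeR). *Snhg18* had 1 to 7 UMIs in a library, and *Snhg11* had none, which allows up to 3 counts, or 0.149 CPM in WT1.

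*Epb41l4aos* fell in the G2/M range. It went from 12.01 to 5.36 CPM in WT1, from 10.3 to 6.43 in WT2, from 16.7 to 8.88 in KO1 and from 12.4 to 3.55 in KO2, and was lower in 4 of 4 libraries (log2 -1.14, SE 0.24, adjusted p = 0.000127 from edgeR). With every cell thinned to 1000 UMIs the change was -1.14, with an adjusted p of 0.0874, and with the top 10% of cells it was -0.68 (adjusted p = 0.00205 from edgeR). *Snhg20* fell in the S range (log2 -0.42, SE 0.17, adjusted p = 0.0325 from edgeR), from 28.4 to 24.9 CPM in WT1, 31.1 to 19.0 in WT2, 26.6 to 26.1 in KO1 and 33.7 to 20.5 in KO2. This call was lost without WT2 (adjusted p = 0.159) and without KO2 (0.158), and with DESeq2 (0.207). A row named *Zfos1*, whose identifier is *Zfas1* in GENCODE vM21 and holds *Snord12*, was looked at after its values were seen. It fell from 158, 123, 163 and 142 CPM in the low range (WT1, WT2, KO1, KO2) to 70.5, 89.2, 76.5 and 53.2 in G2/M (log2 -1.08, SE 0.09, adjusted p = 1.66e-14 from edgeR). In S it fell to 78.3, 66.4, 93.4 and 78.9 CPM (log2 -0.92, SE 0.09, adjusted p = 1.23e-16). One noncoding host rose in S, *2700038G22Rik*, which holds *Snord93* and was also looked at after its values were seen. It went from 5.24, 4.80, 4.03 and 5.49 CPM to 13.3, 11.6, 6.02 and 8.64 in the same order of libraries (log2 0.98, SE 0.31, adjusted p = 0.00735 from edgeR), from 15, 11, 6 and 8 UMIs in S. This call was lost by DESeq2 (adjusted p = 0.0966), with the top 10% of cells (0.50, adjusted p = 0.420 from edgeR) and without WT1 (adjusted p = 0.0801), and after thinning the gene did not pass the filter on low counts. *Zfos1* was called lower in S and in G2/M under each of the alternatives run for the host genes, with -0.53 in S with the top 10%.

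By annotation, 70 noncoding genes hold a snoRNA on their own strand, and 8 of them passed the filter on low counts. This list was made after values had been seen. Between genotypes all 8 had a log2 fold change above 0, with a median of 0.23, and 51.5% of all genes tested were above 0 with a median of 0.01. The 8 include the 3 genes picked from this contrast. The count above 0 was 5 without KO1, 7 without KO2, 6 without WT2, 6 after thinning and 7 without clusters of other cell types. Of the 259 protein-coding genes that hold a snoRNA, 194 were tested and none was called by edgeR (25 at an unadjusted p under 0.05, against 15.6% of all genes) and 1 by DESeq2 (1.76% of all genes), with a median log2 fold change of -0.01. With chimera as a block, 8 of them were called higher and 11 lower, against 4.81% higher and 4.84% lower of all genes. In the G2/M range 45 of 168 protein-coding hosts were called higher and 45 lower, against 22.3% and 22.2% of all genes, led by *Cep55*, *Top2a* and *Ncapd2*, genes of cell division that also define such cells. In S 61 of 170 were called higher and 26 lower, against 22.3% and 19.4% of all genes. After thinning 19 and 14 of 140 were called, beside 570 higher and 299 lower of 6823 over all genes. With the top 10% these were 14 and 9 of 169, beside 534 and 248 of 8768.

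The partners of these RNAs were read from lists of genes. Of the 17 tested genes for snoRNP proteins and their assembly, 14 rose in the S range and none fell, against 22.3% higher and 19.4% lower of all genes, with a median log2 change of 0.75 against -0.02 over all genes tested. *Gar1*, an H/ACA core protein, changed by 1.21 (SE 0.12, adjusted p = 1.51e-15 from edgeR). *Nop56* and *Nop58*, C/D core proteins, changed by 1.09 (SE 0.09) and 1.05 (SE 0.11). After thinning each cell to 1000 UMIs 4 of 15 were called higher in S and none lower, beside 570 and 299 of all 6823 genes tested. With the top 10% of cells 7 of 17 were called higher and none lower, beside 534 and 248 of 8768. In the G2/M range 7 of the 17 rose and 1 fell, against 22.3% and 22.2% of all genes. *Pih1d1* and *Ruvbl2*, of the assembly complex, changed by 1.13 and 0.83 there. With the top 10% 12 of the 17 rose and none fell, beside 2241 higher and 2102 lower of all 9186 genes. After thinning 4 of 15 rose and none fell, beside 988 and 793 of 6888. Of 19 genes of rRNA synthesis, 10 rose and 2 fell in S, against 22.3% and 19.4% of all genes. They were led by *Gnl3* (nucleostemin), at 0.90, *Dkc1* (dyskerin, the H/ACA pseudouridine synthase), at 0.71, and *Nop2*, at 0.61. These calls depend on the setting, as do those over all genes. DESeq2 called 3 of 19 higher, beside 1353 of all 8800 genes. With the top 10% 1 of 20 was called higher, beside 534 of 8768. After thinning none of 18 was called (edgeR, 3 at an unadjusted p under 0.05), beside 570 higher and 299 lower of 6823. In G2/M 1 rose (*Ncl*, nucleolin, 0.43) and 5 fell, among them *Nop2* (-0.73) and *Pes1* (-0.63), where 22.3% of all genes rose and 22.2% fell. This balance turned with the top 10% of cells, where 5 of 21 were called higher and 3 lower, beside 2241 and 2102 of all 9186 genes. The median log2 change of the list there was 0.05 in place of -0.16. DESeq2 called 1 of the 19 higher and 2 lower, beside 1397 and 1008 of 8871.

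Translation factors of the kind whose mRNAs start with a pyrimidine run were mostly lower in G2/M, where 17 of 20 were called lower and 2 higher, against 22.2% lower and 22.3% higher of all genes. *Eif3e* and *Eif3f*, subunits of initiation factor eIF3, changed by -0.69 (SE 0.05) and -0.61 (SE 0.04), and *Nap1l1*, a histone chaperone on this list, by 0.91 (SE 0.06). In S, 10 fell and 3 rose, against 19.4% and 22.3% of all genes, with *Eif3f* at -0.43, *Nap1l1* at 1.31 and *Hnrnpa1*, a splicing regulator, at 0.49. After thinning 6 of 20 were called lower and 1 higher, beside 299 lower and 570 higher of all 6823 genes. With the top 10% 3 of 20 were called lower and 1 higher, beside 248 and 534 of 8768. Of 15 genes of nonsense-mediated decay and the exon junction complex, 4 rose and 1 fell in S, with the junction proteins *Magohb* (0.91), *Magoh* (0.59) and *Eif4a3* (0.47) in the lead, beside 22.3% of all genes higher and 19.4% lower. Of these 15, none was called in S with the top 10% (edgeR, 3 at an unadjusted p under 0.05). Over all 8768 genes there, 782 were called and 1820 were under that unadjusted p. DESeq2 called 4 of 15 higher and none lower, beside 1353 and 943 of 8800. After thinning 2 of 14 were called higher and none lower, beside 570 and 299 of 6823. In G2/M, with 22.3% of all genes higher and 22.2% lower, 4 rose and 2 fell, with *Magohb* at 0.64, *Rbm8a* at 0.63 and the decay kinase *Smg1* at -0.60. Between genotypes edgeR called no gene of these 4 lists. At an unadjusted p under 0.05 were 4 snoRNP genes, 3 of rRNA synthesis, 3 translation factors and 1 of decay, and DESeq2 called 1 translation factor. Over all genes 15.6% were under that p and DESeq2 called 1.76%. With chimera as a replicate block 4 of the 17 snoRNP genes were called lower and none higher, 3 translation factors higher and 1 lower, 1 decay gene lower and none of rRNA synthesis, beside 4.81% of all genes called higher and 4.84% lower. In the same fit 24 of the 42 S genes and 14 of the 52 G2/M genes that set the ranges were called lower and none higher, and their part in the snoRNP calls was not tested. *Rps2*, the neighbour of *Snhg9*, rose in S (log2 0.44, SE 0.04, adjusted p = 1.19e-17 from edgeR) and had -0.02 (SE 0.05, adjusted p = 0.821) in G2/M.

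Over the 31 sums of UMIs by library and class, the mean standardized log2 CPM of the 3 host genes was most like that of *Wdr89* (Pearson r = 0.904), *Rpl9-ps6* (0.883), *Rpl13-ps3* (0.867), *Rpl6l* (0.864), *Rps12-ps3* (0.861), *Gm9493* (0.851), *Rpl23a-ps3* (0.851), *Gm8730* (0.847), *Gm2000* (0.827) and *Gm10036* (0.825), out of 7066 genes. GENCODE lists 6 of the 10 as processed pseudogenes. Such copies can share reads with their parent genes, so that their levels are uncertain. The 31 points share libraries and depth (218415 to 11764782 UMIs a sum). Among the 3 themselves, r was 0.514 for *Snhg6* with *Snhg9*, 0.191 for *Snhg9* with *Snhg12* and 0.126 for *Snhg6* with *Snhg12*, as a description.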

How the data were processed

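The authors made 10x Genomics 3′ libraries (version 2) and deposited UMI counts for all barcodes, neither normalized nor filtered. The submitters' processing notes name bcl2fastq 2.17, Cell Ranger 2.2.0 and mm10. Barcodes with 500 genes or more and no more than 10% of UMIs from mitochondrial genes were kept. Clusters were found per library with Seurat 5.3.0 (2000 variable genes, 15 principal components, resolution 0.8) and named where at least 3 markers were 2-fold above the other cells and found in 10% of the cluster, with 1 among the 10 leading genes (themselves found in 10% of its cells). A cluster led by a gene of another list stayed unnamed. The last 2 conditions were set after the clusters had been seen. No doublet caller was run. UMIs were summed per library and compared by the quasi-likelihood test of edgeR 4.0.16, after filterByExpr and TMM, with Benjamini-Hochberg adjustment over all genes at 0.05, and by DESeq2 1.42.0 as an alternative. The ranges were fitted with library as a block. The code was tested on simulated counts. The host genes and all gene lists were chosen with earlier results of these data known. Same-numbered libraries come from the same animal, and over 6863 genes above 10 CPM the log2 differences between the chimeras in WT and in Bcl3-/- cells correlated at 0.291 across genes. The genes named are the 8 host genes, other named host genes that passed the filter, at most 3 called genes of each list with the largest change, and the 10 genes most like the host genes. Alternatives added after seeing the data were a fit without shared barcodes, ranges restricted to cells with at least 2 CD3 or CD8 UMIs and fewer than 5 hemoglobin UMIs, the interaction for S, and the counts of the gene lists and of 2 noncoding hosts under the alternatives for the ranges. P values of the genotype fit measure the spread between 2 animals per genotype, those with chimera as a block the spread of the differences within chimeras, and those of the ranges the spread of the differences within the 4 libraries.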

Additional observations from a re-analysis of the deposited data

Results flagged for a closer look

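*Snhg12* had differences of opposite sign between the low and the S range in the 2 genotypes. The log2 difference was -1.14 in WT1 and -0.25 in WT2, and 0.27 in KO1 and 0.87 in KO2. It drew attention because both WT libraries lay below 0 and both *Bcl3*-/- libraries above it. The exact 95% interval spans 0 in each library, so that no sign is resolved. It was -3.09 to 0.34 in WT1, -2.25 to 1.30 in WT2, -1.05 to 1.42 in KO1 and -0.33 to 1.95 in KO2. The share of all genes with such a split was not counted. The S ranges held 4, 4, 8 and 10 UMIs of *Snhg12*. The interaction of genotype and S range was 1.29 (log2, SE 0.70, adjusted p = 0.873 from edgeR), which does not pass the threshold.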

How the results depend on the processing

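*Snhg9* stayed higher in *Bcl3*-/- cells under each of the 13 alternatives run, with log2 fold changes from 1.79 to 2.19 (1.79 to 2.173 leaving out a library). The host genes were picked from this contrast and the alternatives refit the same libraries. These values and the calls of *Snhg6* below are therefore no independent test. Of 309 values over all alternatives, 263 kept their direction and their side of the threshold or their size. The cause of the other changes was not tested. Between genotypes 42 genes were called by edgeR, 203 by DESeq2, 1116 with the replicate block and 40 to 228 without 1 library (228 without WT1, 176 without KO1). With the block *Snhg6* had 0.86 and was called. Leaving out a library gave it 0.38 to 1.38, and gave *Snhg12* -0.074 to 0.35. After thinning, *Snhg12* had -0.16 and *Snhg20* -0.027. The block changed the calls of *Snhg6* and *Dancr* (-1.90) and, of the host genes chosen by name, no other call.

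For the G2/M range 3947 genes were called, against 2405 by DESeq2 and 1781 after thinning. *Snhg9* had 0.055 by DESeq2 and -0.32 to 0.10 without 1 library, *Snhg6* had 0.11 with the top 10% of cells and -0.15 to 0.041 without 1 library, and *Epb41l4aos* had -1.14 after thinning and -0.68 with the top 10%. For the S range 3670 genes were called, against 2296 by DESeq2, 869 after thinning and 782 with the top 10%. There *Snhg9* had 0.054 by DESeq2 and 0.11 with the top 10%, *Snhg6* had -0.00043 after thinning, and *Snhg12* had 0.00066 in cells with at least 2 CD3 or CD8 UMIs, 0.0029 without the replicate block, 0.23 with the top 10% and -0.38 to 0.34 without 1 library. *Epb41l4aos* had 0.14 after thinning and -0.43 to 0.12 without 1 library. *Snhg20* was no longer called by DESeq2 (-0.44), after thinning (-0.83), without the block (-0.42) or with the top 10% (-0.16), nor without WT2 or KO2, and had -0.53 to -0.34 over the libraries left out. The G2/M interaction was called for 7 genes, 3 in cells with at least 2 CD3 or CD8 UMIs, and 0 after thinning (edgeR, 340 at an unadjusted p under 0.05), where *Snhg6* had -0.31. The S interaction was called for 2 genes, 0 in cells with at least 2 CD3 or CD8 UMIs (edgeR, 466 unadjusted), 4 after thinning and 202 with the top 10%, and *Snhg6* had -0.91 in it after thinning. *Snhg12* had a G2/M interaction of 0.32 with the top 10%. Clustering at resolution 0.4 gave *Snhg12* a mean of 9.37 CPM in interferon clusters. Few UMIs limit *Snhg9* in WT cells, with 9 and 10 in the low range.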

Other observations

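In the clusters of KO1 and KO2 led by *Lyz2*, *C1qb* and *H2-Aa*, which stayed unnamed, *Snhg9* had 13.2 CPM (6.57 to 23.5) and 21.6 CPM (13.4 to 33.0), and *Snhg6* had 33.5 CPM (22.2 to 48.4) and 47.3 CPM (34.6 to 63.0). In KO2 the level of *Snhg6* there was 1.69-fold that of the T cells (1.22 to 2.28), and in KO1 1.17-fold (0.768 to 1.70). The myeloid-like clusters had 25.02 (WT1), 17.8 (WT2), 26.8 (KO1) and 4.58 CPM (KO2) of *Snhg6*, and 3, 0, 3 and 1 UMIs of *Snhg9*. Those of KO1 and KO2 were led by *S100a9*, and those of WT1 and WT2 by *Lyz2*. Sorted populations of these cells were not analysed here.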
